A study of Homo sapiens with 2 samples.

Results

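The mitochondrial carriers of the SLC25 family were examined in a doxorubicin-resistant derivative of SUM159, an established line of triple-negative breast cancer. The members were the gene symbols that begin with SLC25A and end in a number, together with UCP1, UCP2 and UCP3, which are carriers of the same family, and 1 further numbered symbol was left out by the rule and is not described here. The rule found 47 members among the 23368 gene symbols, and it used names only and no measured value. Symbols were taken as listed, and a carrier listed under an older name of another form is not a member.

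Doxorubicin is an anthracycline that poisons topoisomerase II. The 2 libraries, replicates 1 and 2, are the only group, of the genotype Wt in the labels. The cells grew attached, as a monolayer, in Ham's medium to which hydrocortisone at 1 μg/mL, insulin at 5 μg/mL and 5% serum had been added, and had become resistant over rounds of treatment at rising doses, each followed by recovery without the drug. Polyadenylated RNA was made into directional libraries, and the authors counted reads per gene. Every value below therefore describes resistant cells, and no comparison with treatment-naïve cells was made. Whether the libraries stem from different cultures is not said in the sources, and their spread may therefore be of technical origin alone.

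Carriers of this family sit in the inner mitochondrial membrane, with few exceptions, and exchange small molecules between the cytosol and the matrix. Each is built from repeats of a membrane module, and related genes often carry the same substrate in different tissues. The ADP/ATP carriers bring ADP in and ATP out, the phosphate carrier supplies phosphate to the ATP synthase, and other members move citrate, dicarboxylates, amino acids, cofactors and iron. The uncoupling protein UCP1 instead lets protons back across the membrane and is known for heat production in brown fat.

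The 4 genes of the ADP/ATP carriers had very unequal counts in these libraries, so their promoters are given. The count of SLC25A6 is uncertain, as stated below. The windows run from 250 bases before the gene start to 50 bases after it, are from RefSeq on GRCh38.p14, and read 5′ to 3′ along the gene. They stand at chr4:185143016-185143315 on the plus strand for SLC25A4, at chrX:119468194-119468493 on the plus strand for SLC25A5, at chrX:1392064-1392363 on the minus strand for SLC25A6 and at chr4:127730150-127730449 on the plus strand for SLC25A31. Capitals mark matches on either strand. The CCAAT box was searched as CCAAT. The letters searched for an ETS core were CCGGAAG. Those for the TATA box were TATAAA. For an E-box the letters were CACGTG.
SLC25A4: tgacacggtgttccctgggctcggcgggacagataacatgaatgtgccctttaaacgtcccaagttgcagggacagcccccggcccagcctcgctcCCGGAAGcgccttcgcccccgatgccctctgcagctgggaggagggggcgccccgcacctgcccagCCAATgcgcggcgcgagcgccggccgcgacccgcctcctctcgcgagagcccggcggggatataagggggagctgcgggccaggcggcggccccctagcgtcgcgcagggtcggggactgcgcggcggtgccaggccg
SLC25A5: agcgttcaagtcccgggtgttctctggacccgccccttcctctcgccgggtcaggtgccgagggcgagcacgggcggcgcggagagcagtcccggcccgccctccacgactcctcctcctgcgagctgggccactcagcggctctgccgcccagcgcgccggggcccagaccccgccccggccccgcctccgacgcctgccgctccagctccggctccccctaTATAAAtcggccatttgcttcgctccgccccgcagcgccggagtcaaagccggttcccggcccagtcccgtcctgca
SLC25A6: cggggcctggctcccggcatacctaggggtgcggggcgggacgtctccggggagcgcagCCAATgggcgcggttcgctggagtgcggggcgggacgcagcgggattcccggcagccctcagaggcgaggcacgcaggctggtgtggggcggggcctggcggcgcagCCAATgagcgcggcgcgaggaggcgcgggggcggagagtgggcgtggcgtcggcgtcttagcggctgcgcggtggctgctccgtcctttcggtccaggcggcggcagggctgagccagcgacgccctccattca
SLC25A31: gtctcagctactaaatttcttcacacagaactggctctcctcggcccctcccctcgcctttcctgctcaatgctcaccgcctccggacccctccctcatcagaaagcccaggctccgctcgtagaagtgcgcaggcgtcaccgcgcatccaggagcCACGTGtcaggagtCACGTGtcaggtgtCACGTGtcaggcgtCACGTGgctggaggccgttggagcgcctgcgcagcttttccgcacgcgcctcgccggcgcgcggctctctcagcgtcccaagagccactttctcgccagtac
The SLC25A5 window holds 1 TATA box near the gene start, the SLC25A4 window 1 ETS core and 1 CCAAT box, and the SLC25A6 window 2 CCAAT boxes. The SLC25A31 window holds 4 E-boxes in close succession, a motif that was added to the search after this window had been seen. Its 28 CpG dinucleotides are not far below the 36 of SLC25A5 and SLC25A4 and the 40 of SLC25A6, although SLC25A31 had 0 counts in both libraries, as given below.

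Promoter windows were found for 39 of the 47 members. Their median was 27 CpG, against 13 over all 27305 windows. These windows were not filtered by gene type, and how far gene type enters the contrasts with the members was not tested. The 32 members with a window that averaged 20 counts or more had a median of 28 CpG, with a range of 5 to 48, and the 7 with a lower mean count had a median of 9, with a range of 2 to 35. The ranges overlap, as UCP1 with 35 CpG and SLC25A48 with 31 CpG had 0 counts in both libraries, whereas SLC25A45, with 5 CpG, had 103 and 59 counts. The CCAAT box was in 19 member windows (48.7%, against 35.7% of all windows), the ETS core in 9 (23.1% against 10.6%) and the TATA box in 3 (7.69% against 12.0%). The E-box was in 6 (15.4% against 7.4%), among them the SLC25A31 window that had prompted its search. The core of the NRF1 motif (GCGCATGC) was in 0 member windows and in 3.29% of all windows. These are matches of letters and were not tested as binding sites.

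The depth was 23044084 counts in replicate 1 and 17985508 in replicate 2. Levels are given as counts per 1000000 counts of the library (CPM) and, between genes, as CPM per kilobase of merged exons (RPKM), as mean ± SD over 2 libraries. A count of 0 allows a level of up to 0.130 CPM at the depth of replicate 1 and of up to 0.167 CPM at that of replicate 2, taken as 3 counts, and such limits cover counting error only. The cells expressed the mesenchymal marker VIM at 7542 ± 873 CPM (SD, n = 2) and FN1, of the same list, at 2027 and 5101 CPM. The receptor genes ESR1, PGR and ERBB2 had 11 and 9, 2 and 0, and 2191 and 1877 counts. The cells had at most 3 counts in each library for 14 of 16 markers of other cell types. The exceptions were PTPRC, with 48 and 31 counts, and PECAM1, with 24 and 20 counts, and the summed level of the 16 markers was 3.25 and 2.95 CPM.

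The cells expressed most of the family. Averaged over the libraries, 38 of the 47 members (80.9%) reached 20 counts, against 52.8% of all symbols. Of the members, 32 reached 100 counts on this average and 12 reached 1000. The symbols include noncoding genes and were not filtered by gene type, and how far gene type enters the contrast with 52.8% was not tested. The family took 0.289% of the counts of replicate 1 and 0.258% of those of replicate 2 (0.273 ± 0.0223%, SD, n = 2). SLC25A3, SLC25A5 and SLC25A39 together held 54.4% of the family's counts. The median level of the 38 expressed members was 6.09 RPKM, against 6.47 RPKM over the 10776 genes with a length and the same minimum count. Without length the order turned, with a median of 36.0 CPM for these members and 34.1 CPM for all symbols with that minimum.

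**Figure D1:**
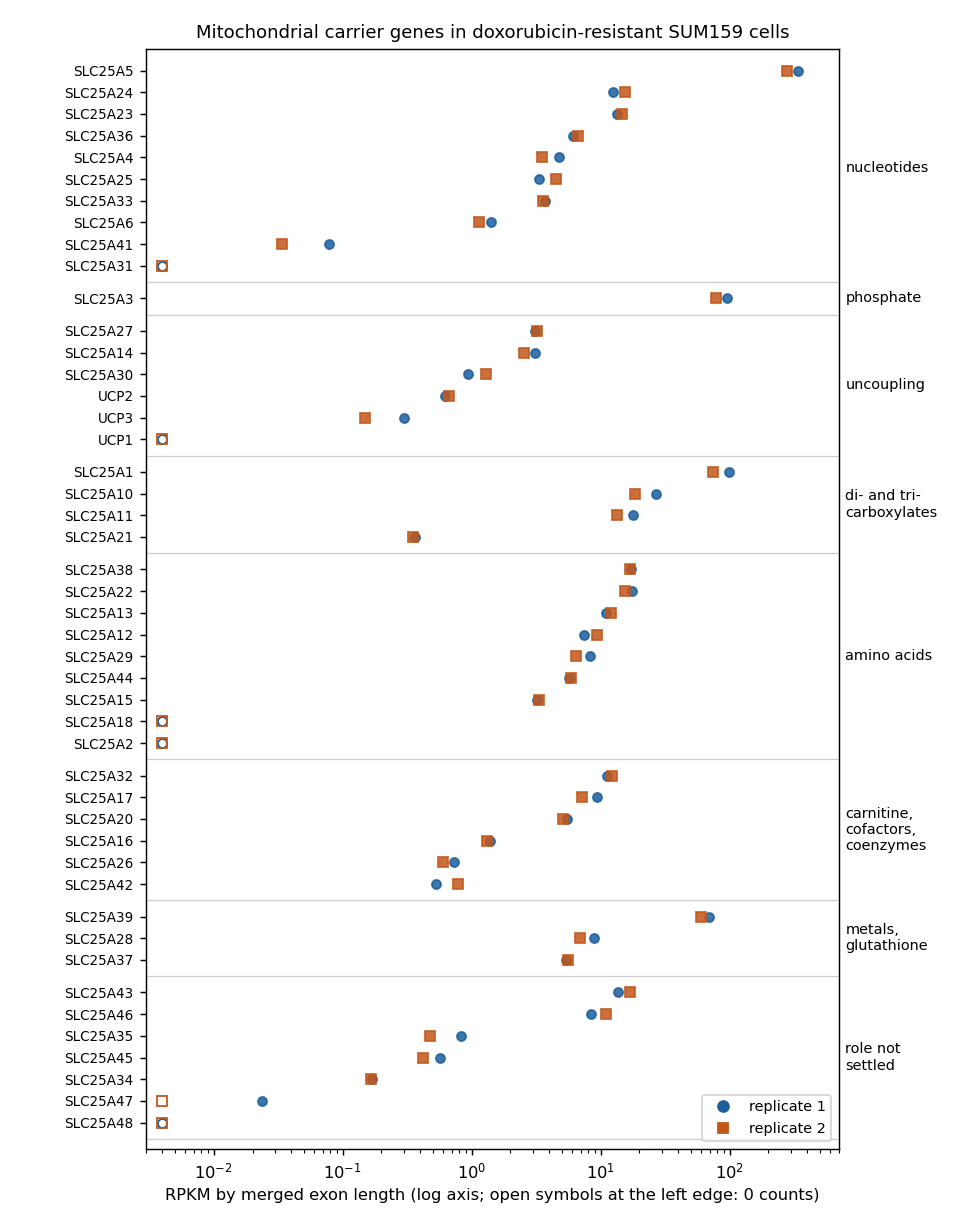
RPKM by merged exon length (log axis) of the members reported by name in replicate 1 (circles) and replicate 2 (squares), grouped by what they carry, with open symbols at the left edge for 0 counts. SLC25A5 stands at the right, at 337 and 280 RPKM, and the 5 members with 0 counts in both libraries stand at the left edge.

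Among carriers of nucleotides, SLC25A5 (ADP/ATP carrier 2, the form of dividing cells; X:118602385-118605359 on GRCh37, as for all gene positions below) had 12068 counts in replicate 1 and 7821 in replicate 2. Its level was 308 ± 40.4 RPKM (SD, n = 2), the highest of the family by merged exons and at the 99.4th percentile of the expressed genes with a length. Of its exonic length, 13.2% overlaps the antisense gene SLC25A5-AS1. SLC25A4 (ADP/ATP carrier 1, the main form of heart and skeletal muscle; 4:186064420-186071536) had 525 and 303 counts, or 4.11 ± 0.871 RPKM. SLC25A6 (ADP/ATP carrier 3; X:1505045-1511006) had 51 and 32 counts, or 1.29 ± 0.198 RPKM. SLC25A31 (ADP/ATP carrier 4, of male germ cells; 4:128651555-128695447) had 0 counts in both libraries, as did the germ cell markers DDX4 and PRM1. SLC25A5 thus made up 98.2% and 98.4% of the RPKM of the 4 carriers (98.3 ± 0.114%, SD, n = 2), and 95.7% by CPM without length. The value of SLC25A6 is uncertain, because the gene lies in the pseudoautosomal region and is annotated on both the X and the Y chromosome of the reference. Reads that match both copies may have been left out of the counts, which the sources do not state, and whether this lowered its value was not tested.

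The ATP-Mg/phosphate carriers, which are regulated by calcium and change the adenine nucleotide content of the matrix, were spread over 3 genes. SLC25A24 (1:108676665-108743471) had 1950 and 1887 counts, or 14.1 ± 2.13 RPKM. SLC25A23 (19:6436090-6465214) had 1496 and 1296 counts, or 14.0 ± 1.03 RPKM. SLC25A25 (9:130830480-130871524) had 456 and 480 counts, or 3.92 ± 0.823 RPKM. By merged exons the libraries of SLC25A24 and SLC25A23 overlapped in level, and both lay above SLC25A25. By coding length SLC25A24, at 59.1 and 73.3 RPKM, was clear of SLC25A23, at 46.2 and 51.3 RPKM. Of the exonic length of SLC25A24, 13.7% overlaps a noncoding gene on the opposite strand. For SLC25A25, 11.2% overlaps its antisense gene SLC25A25-AS1. SLC25A41, which lies 2299 bp from SLC25A23 on the same strand, had 3 and 1 counts. SLC25A24 made up 42.9% and 44.7% of the RPKM of these carriers (43.8 ± 1.24%, SD, n = 2), and 50.8% by coding length.

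The carriers of pyrimidine nucleotides, which feed mitochondrial DNA and RNA synthesis, were SLC25A36, with 1453 and 1253 counts (6.42 ± 0.452 RPKM), and SLC25A33, with 330 and 247 counts (3.63 ± 0.107 RPKM). In the family SLC25A36 had rank 19 by merged exons, 20 by canonical transcript and 6 by coding length. The coding sequence of SLC25A33 matches a second place, on chromosome 11 from 49455028 to 49455990, at 99.3% identity, so reads of the gene may have been lost or split and its value is uncertain.

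SLC25A3 (12:98987369-99000157), the phosphate carrier, had the most counts of any member, with 19652 in replicate 1 and 12533 in replicate 2. It held 29.5% and 27.1% of the family's counts, and its level was 775 ± 110 CPM (SD, n = 2). Per kilobase of merged exons it stood at 87.1 ± 12.4 RPKM, or 0.282 ± 0.00321 times SLC25A5. The ratio depends on the length used, because the annotated exons of SLC25A3 span 8896 bp, its canonical transcript 5984 bp and its coding sequence 1083 bp. By canonical transcripts SLC25A3 stood at 0.353 ± 0.00401 times SLC25A5, and by coding length at 1.33 ± 0.0152 times, so which of the pair is the more abundant transcript cannot be told from these counts. The ratio itself differed little between the libraries, at 0.285 and 0.280 by merged exons. ATP5B, the catalytic subunit of the ATP synthase that both carriers serve, had 23923 and 16975 counts, or 443 ± 29.8 RPKM.

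The genes named for uncoupling were low. UCP2 (11:73685717-73693888), found in many tissues, had 40 and 33 counts, or 0.645 ± 0.0253 RPKM. UCP3, of skeletal muscle, whose gene lies 17433 bp away on the same strand, had 23 and 9 counts, or 0.224 ± 0.105 RPKM. UCP1 (4:141480585-141490115) had 0 counts in both libraries, and the fat cell markers CIDEA and ADIPOQ were also at 0. UCP2 made up 67.7% and 81.6% of the RPKM of these 3 genes, a share that rests on fewer than 100 counts in each library. The more distant members of the group were higher. SLC25A27 (UCP4) had 236 and 189 counts (3.16 ± 0.0575 RPKM), SLC25A14 (UCP5) had 215 and 139 counts (2.83 ± 0.376 RPKM), and SLC25A30 had 148 and 158 counts (1.12 ± 0.246 RPKM). The 6 genes together held 0.994% and 1.14% of the family's counts.

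Of the carriers of di- and tricarboxylates, SLC25A1 (22:19163094-19166252), which exports citrate for the synthesis of fatty acids and sterols, had 4580 and 2698 counts. At 87.2 ± 17.2 RPKM (SD, n = 2) its libraries overlapped those of SLC25A3 by merged exons. ACLY, the enzyme that cleaves citrate in the cytosol, had 11778 and 12054 counts, and CS, which makes citrate in the matrix, had 6187 and 5369 counts. SLC25A10 (17:79679266-79688046), which exchanges malate and succinate for phosphate, had 1624 and 877 counts (22.7 ± 5.86 RPKM), and 46.6% of its exonic length is shared with another protein-coding gene annotated on the same strand. SLC25A11 (17:4840425-4843348), the oxoglutarate/malate carrier, had 1017 and 598 counts (15.7 ± 3.11 RPKM). SLC25A21, the carrier of oxodicarboxylates from lysine and tryptophan breakdown, had 40 and 30 counts (0.358 ± 0.0101 RPKM), and 30.3% of its exonic length overlaps exons of PAX9 on the opposite strand.

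Among the carriers of amino acids, SLC25A12 and SLC25A13 export aspartate for glutamate and, with SLC25A11, complete the malate-aspartate shuttle. SLC25A13 (7:95749532-95951459), the form of liver and of many dividing cells, had 948 and 797 counts, or 11.5 ± 0.605 RPKM. SLC25A12 (2:172639915-172864766), the form of brain and muscle, had 1059 and 1035 counts, or 8.45 ± 1.34 RPKM. By merged exons SLC25A13 made up 59.6% and 56.0% of the pair (57.8 ± 2.60%, SD, n = 2), but by coding length 45.5% and by CPM 45.4%, so the pair has no order that holds for every length. The enzymes of the shuttle were all expressed, with 1758 and 1262 counts of GOT1, 4391 and 3274 of GOT2, 4463 and 2971 of MDH1, and 7523 and 4858 of MDH2.

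The glutamate carriers fell on 1 gene. SLC25A22 (11:790475-798281) had 1866 and 1279 counts (16.5 ± 1.52 RPKM), whereas SLC25A18 (22:18043150-18073761), its close relative, had 0 counts in both libraries. SLC25A38 (3:39424861-39438842), the glycine carrier that feeds haem synthesis, had 1050 and 804 counts, and its levels of 17.1 and 16.8 RPKM were close in the libraries. SLC25A29, for basic amino acids, had 1410 and 871 counts (7.36 ± 1.21 RPKM), and SLC25A44, for branched-chain amino acids, had 950 and 768 counts (5.75 ± 0.143 RPKM). The place of SLC25A29 depends on the length, with rank 18 by merged exons, 7 by canonical transcript (23.9 ± 3.94 RPKM) and 10 by coding length. Of the ornithine carriers of the urea cycle, SLC25A15 had 311 and 249 counts (3.27 ± 0.0589 RPKM), and SLC25A2, a gene without introns, had 0 in both libraries. A stretch of 124 bases of the SLC25A15 coding sequence has 4 other places at 95% identity or more, which may have cost it some reads.

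All 7 carriers of carnitine, cofactors and coenzymes reached the minimum count, at low to middle levels. SLC25A32, the folate carrier, had 941 and 812 counts (11.8 ± 0.835 RPKM), and SLC25A17, of peroxisomes, had 869 and 518 (8.34 ± 1.58 RPKM). Of the exonic length of SLC25A32, 69.7% is shared with another protein-coding gene annotated on the same strand, and 11.1% overlaps DCAF13 on the opposite strand. SLC25A20, which brings acylcarnitines in for fatty acid oxidation, had 239 and 174 counts (5.28 ± 0.260 RPKM), beside 1745 and 1237 counts of CPT1A and 720 and 608 of CPT2, the enzymes on either side of it. By merged exons the genes linked to coenzyme A were lower than these, with 252 and 186 counts of SLC25A16 and 57 and 66 of SLC25A42 (1.35 ± 0.0534 and 0.658 ± 0.181 RPKM). By canonical transcript SLC25A16 was also below SLC25A20 (means of 1.62 and 5.64 RPKM). By coding length the means of SLC25A16 and SLC25A20 were close, at 10.7 and 11.1 RPKM. SLC25A26 (3:66119285-66438540), which brings S-adenosylmethionine in for methylation in the matrix, had 370 and 236 counts. Its place depends on the length: its merged exons span 21792 bp and gave 0.669 ± 0.0952 RPKM, rank 33, whereas the canonical transcript of 2035 bp gave 7.17 ± 1.02 RPKM, rank 23. Of its exonic length, 12.2% overlaps LRIG1 on the opposite strand.

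In the group of metals and glutathione, SLC25A39 (17:42396993-42402238), which imports glutathione, had 5624 and 3802 counts, or 64.6 ± 6.55 RPKM (SD, n = 2), the fourth place by merged exons. The mitoferrins, which import iron for haem and iron-sulfur clusters, were lower. SLC25A28 (mitoferrin 2, of most tissues) had 705 and 427 counts (7.95 ± 1.42 RPKM) and SLC25A37 (mitoferrin 1, best known in red cell precursors) had 999 and 802 counts (5.50 ± 0.110 RPKM). SLC25A37 made up 37.7% and 44.5% of the pair by merged exons (41.1 ± 4.81%, SD, n = 2), 34.8% by canonical transcripts and 63.7% by coding length, so their order turns with the length. The blood marker HBB was at 0 in both libraries.

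Members whose cargo was not taken as settled ranged widely. SLC25A43 (X:118533299-118588441), which lies 13943 bp from SLC25A5 on the same strand, had 894 and 862 counts (15.3 ± 2.27 RPKM), far below its neighbour. SLC25A46 (5:110073837-110100861), a protein of the outer membrane that takes part in the shaping of mitochondria, had 1612 and 1647 counts (9.77 ± 1.85 RPKM). SLC25A35 had 76 and 34 counts (0.656 ± 0.252 RPKM), with 28.7% of its exonic length overlapping RANGRF on the opposite strand, and SLC25A45 had 103 and 59 (0.493 ± 0.107 RPKM). SLC25A34 had 13 and 10 counts. SLC25A47, known from liver, had 1 and 0 counts, and the liver marker ALB was at 0. SLC25A48 had 0 counts in both libraries.

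**Figure D2:**
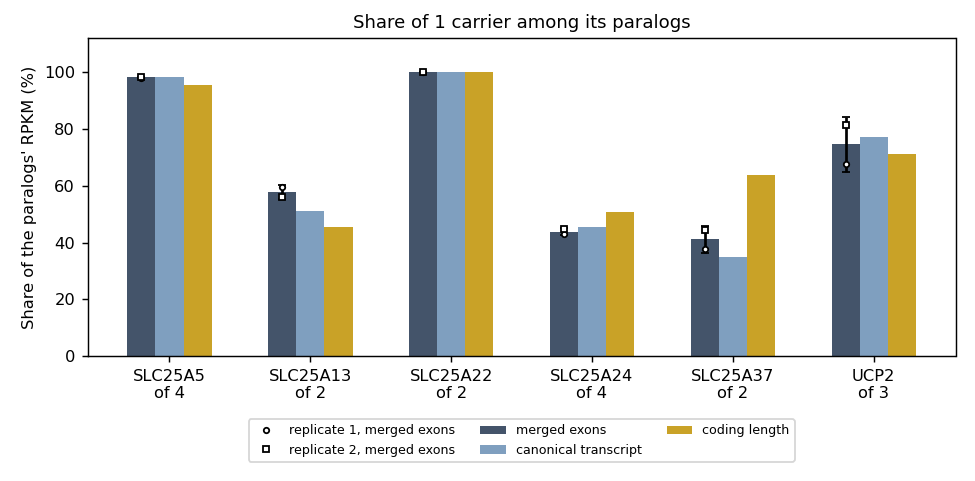
Share (%) of 1 carrier in the RPKM of its related genes, as mean over 2 libraries by merged exons (dark bars, error bars SD, points the libraries), canonical transcript (light bars) and coding length (yellow bars). SLC25A5 and SLC25A22 take nearly all of their groups by each length, whereas SLC25A13, SLC25A24 and SLC25A37 stand on different sides of 50% by merged exons and by coding length. The count of SLC25A6, in the group of SLC25A5, is uncertain.

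In the order of levels by merged exons, 37 pairs of neighbours can be formed among the 38 expressed members. The libraries of 21 pairs overlapped, and 16 pairs did not. SLC25A5 stood clear of the next member, SLC25A1 and SLC25A3 overlapped, and SLC25A39 and SLC25A10 followed, each clear of the next. From SLC25A38 to SLC25A23, a sequence of 6 members, the libraries of each member overlapped those of the next. SLC25A38 was nevertheless clear of SLC25A24 and SLC25A23, which are not its neighbours. An overlap here sets the lowest library of 1 gene against the highest of the other. Some overlapping pairs, such as SLC25A43 and SLC25A24, therefore kept the same order in both libraries. By coding length the top 4 were the same genes in another order, SLC25A3, SLC25A5, SLC25A39 and SLC25A1, at 715 ± 102, 536 ± 70.3, 211 ± 21.4 and 187 ± 36.9 RPKM (SD, n = 2).

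**Figure D3:**
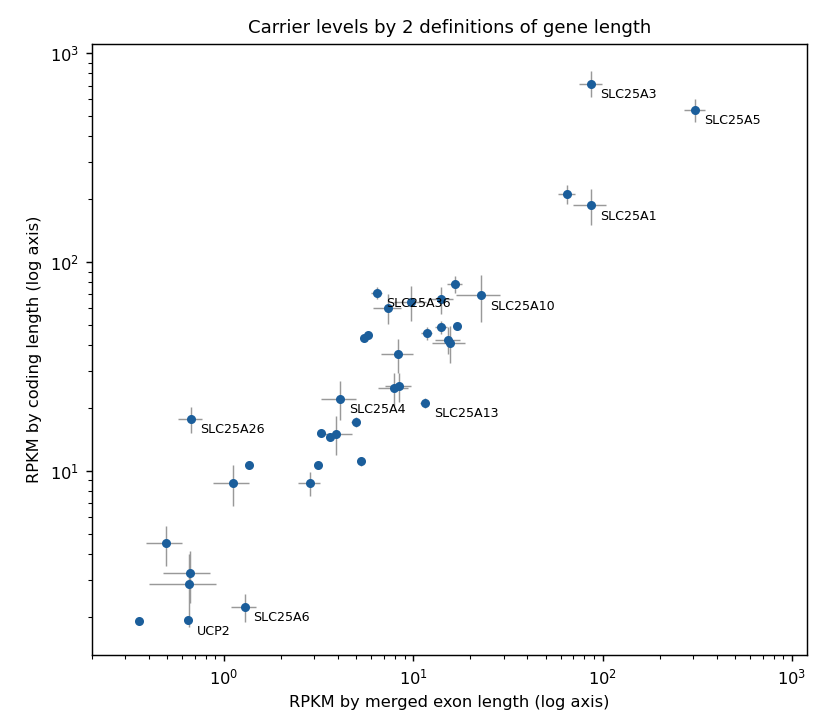
RPKM by coding length against RPKM by merged exon length (log axes) for the 38 members that averaged 20 counts or more, points being means and bars the SD over 2 libraries. SLC25A3 stands above SLC25A5 on the vertical axis and below it on the horizontal one, and SLC25A26 lies far above members of like merged-exon level.

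The libraries were then compared with each other, which concerns these libraries and no condition. The test sets 1 library against 1, so its p-values cover counting error only and hold no spread between replicates, and a call says only that the counts of these libraries differ by more than counting error. The exact binomial test of edgeR, with Benjamini-Hochberg adjustment over 13744 genes, could be applied to 40 members, those with at least 10 counts in sum. It called 21 members (52.5%), against 57.7% of all genes in either direction. Of these, 13 (32.5%) were higher in replicate 1, against 27.6% of all genes, and 8 (20%) were higher in replicate 2, against 30.1%. A difference of at least 2-fold was seen in 0 members and in 7.67% of all genes. UCP3, with 23 and 9 counts, fell just short, at 1.99-fold higher in replicate 1. The share over all genes takes in genes with as few as 10 counts in sum, and how far the number of counts enters this contrast was not tested. The median log2 ratio of replicate 2 over replicate 1 was −0.06 for the members and −0.01 for all genes, and the median size of the log2 ratio was 0.28 and 0.32. The share of members called in either direction was thus near that of all genes.

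Across all genes the ratio rose with the merged exon length, with a Spearman rho of 0.52 over 11787 genes and 0.28 over the 40 members, given as a description over genes of the same libraries. The median length was 3971 bp for the members and 5428 bp for all genes. With the expected split corrected for length, 11 members (27.5%) were higher in replicate 1, against 25.9% of all genes, and 12 (30.0%) were higher in replicate 2, against 26.9%. The median distance from the fitted line was 0.22 for the members and 0.25 for all genes, on the log2 scale.

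**Figure D4:**
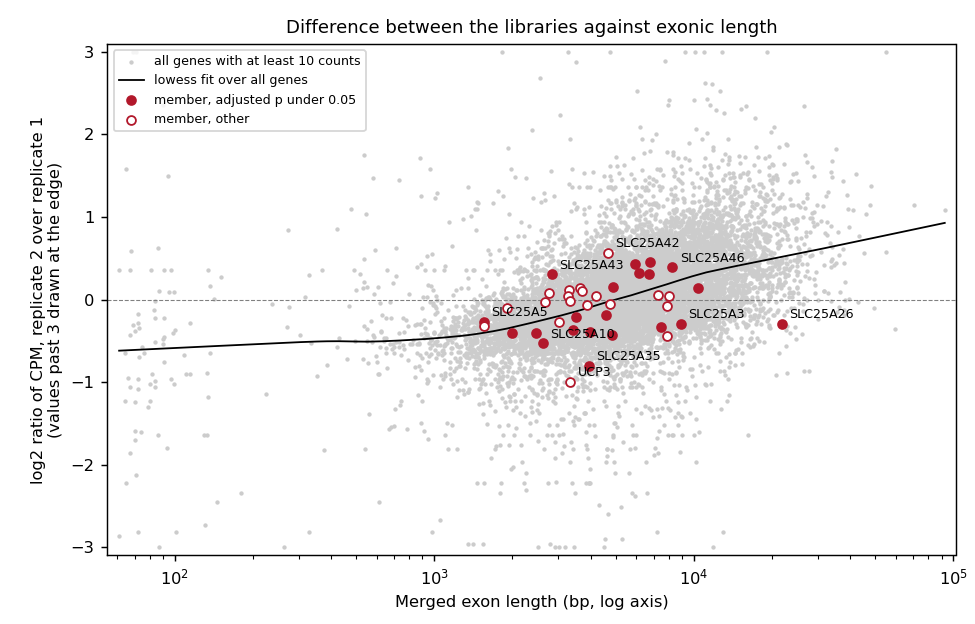
Log2 ratio of CPM, replicate 2 over replicate 1, against merged exon length (log axis) for all genes with a length (grey), the 40 members tested (red, filled where the adjusted p of the exact binomial test was under 0.05) and the lowess fit over all genes (line). UCP3 stands lowest among the members, and SLC25A42 highest at 0.57.

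SLC25A3, the member with the most counts, was at 853 CPM in replicate 1 and 697 CPM in replicate 2, 1.22-fold higher in replicate 1. SLC25A5 was at 524 and 435 CPM, higher in replicate 1 by 0.27 on the log2 scale. The log2 ratios of SLC25A3 and SLC25A5 were close, at −0.29 and −0.27. Beside genes of like merged length they parted, SLC25A3 lying 0.53 below the line and SLC25A5 0.13 above it. This parting comes from the line, which stood at 0.24 and −0.40 at their merged lengths of 8896 and 1555 bp. The distances and corrected calls therefore rest on the merged lengths, and that of SLC25A3 takes in far more than its canonical transcript of 5984 bp. SLC25A39, at 244 and 211 CPM, was 1.15-fold higher in replicate 1, SLC25A1, at 199 and 150 CPM, 1.32-fold, and SLC25A10, at 70.5 and 48.8 CPM, 1.45-fold. All 5 were called without the length correction, and SLC25A3, SLC25A5 and SLC25A10 were also called with it, SLC25A5 then toward replicate 2.

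Among the 38 expressed members, the lowest log2 ratios of replicate 2 over replicate 1 were those of SLC25A35 (−0.80), SLC25A10 (−0.53), SLC25A45 (−0.45), SLC25A4 (−0.44) and SLC25A11 (−0.41). The highest were those of SLC25A42 (0.57), SLC25A30 (0.45), SLC25A25 (0.43), SLC25A46 (0.39) and SLC25A12 (0.32). Some of these calls changed with the length correction. SLC25A45 and SLC25A42 were called with the correction and not without it, at 103 and 59 and at 57 and 66 counts, whereas SLC25A30 and SLC25A11 were called without it and not with it. SLC25A46, at 70.0 and 91.6 CPM, was 1.31-fold higher in replicate 2, and SLC25A43, at 38.8 and 47.9 CPM, 1.24-fold, and both were called either way. SLC25A43 and its neighbour SLC25A5 were called in opposite directions without the correction, and both toward replicate 2 with it, at 0.53 and 0.13 above the line.

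By role, without the length correction and against 27.6% of all genes higher in replicate 1 and 30.1% higher in replicate 2, the calls were few in each group. Of 8 nucleotide carriers tested, 2 were higher in replicate 1 and 4 in replicate 2, and the phosphate carrier was higher in replicate 1. Of 5 uncoupling genes tested, 0 and 1 were called, of 4 carriers of di- and tricarboxylates 3 and 0, and of 7 carriers of amino acids 2 and 1. Of 7 carriers of carnitine, cofactors and coenzymes, 2 and 0 were called, of 3 carriers of metals and glutathione 2 and 0, and of 5 tested members without a settled role 1 and 2. The 3 carriers of di- and tricarboxylates were SLC25A1, SLC25A10 and SLC25A11, with merged exons of 1999 to 2621 bp, and only SLC25A10 of these was called with the length correction.

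Genes that work beside the carriers were taken from a list of 36, and all 36 averaged 20 counts or more. By the exact binomial test of edgeR 17 were higher in replicate 1 and 7 in replicate 2, against 27.6% and 30.1% of all genes, and with the length correction 10 and 14, against 25.9% and 26.9%. The outer membrane channels through which the carriers' substrates pass, VDAC1, VDAC2 and VDAC3, had 11233 and 7951, 3342 and 2187, and 3322 and 2261 counts in replicates 1 and 2. PPIF, the cyclophilin of the matrix that is known to regulate the permeability transition, had 228 ± 8.78 CPM. The pyruvate carrier, which belongs to another family, had 1126 and 662 counts of MPC1 and 1319 and 785 of MPC2, listed under older symbols. The carrier-like proteins MTCH1 and MTCH2 of the outer membrane had 173 ± 10.8 and 110 ± 10.8 CPM.

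The TIM22 complex, which inserts carriers into the inner membrane, was expressed in each part listed, with 333 and 251 counts of its channel TIMM22, 1073 and 756 of the chaperone TIMM9, 638 and 418 of TIMM10, 518 and 503 of TIMM10B and 327 and 211 of TIMM29. Of the PGC-1 coactivators, which drive mitochondrial gene expression, PPARGC1A had 37 and 39 counts, PPARGC1B 184 and 240, and PPRC1 1598 and 2665. PPRC1 was at 69.3 and 148 CPM, the 1 gene of the list with a 2-fold difference between the libraries. ESRRA, the nuclear receptor that works with them, had 2131 and 1247 counts, and was higher in replicate 1, at 92.5 against 69.3 CPM.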

How the data were processed

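For both libraries the authors deposited counts that had not been normalized, with a value per gene symbol. Per the labels and the paper, the authors' workflow in Galaxy ran FastQC, HISAT2 against hg19 and HTSeq, and deepTools is also listed. For these tools the version, the annotation and the strand option are not given in the sources used here. Without a strand setting, reads of a gene and of an overlapping gene on the opposite strand cannot be told apart. Of the members, 21 share exons with another annotated gene, 10 of them over more than 10% of their exonic length. The labels name TRI reagent and the paper the RNeasy kit for RNA extraction.

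CPM were scaled to the sum over all symbols. All 47 members, and 19338 of the 23368 symbols, were matched by symbol to 1 gene of GENCODE 44 on GRCh37, which gave coordinates and lengths. The members and lists were chosen with earlier results of these data known. Values of 1 member are not reported here by name, although it is kept in the counts and medians. Named genes are the members by role, the extremes of each role and of the library ratio, and the listed partners paired with a member. The libraries were compared with the exact binomial test of edgeR at an adjusted p under 0.05, over genes with at least 10 counts in sum, and with the split corrected by a lowess fit on log2 length (fraction 0.3). The test was run on simulated counts with counting error only, and the fit on a simulated length trend. These runs check the code and not how the test behaves on these libraries. Copies were searched with BLAST 2.17.0 at 95% identity over at least 100 bases. Canonical transcript and coding length were added after seeing the data, since merged exons take in every annotated transcript. Promoters were matched by symbol, and where a gene has several starts the most upstream was used. R 4.3.3, edgeR 4.0.16, DESeq2 1.42.0 (size factors only), Python 3.11.15, pandas 2.3.3, scipy 1.17.1 and statsmodels 0.14.6 were used.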

Additional observations from a re-analysis of the deposited data

How the results depend on the processing

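Of 86 alternatives, 55 moved the value by no more than the spread of the libraries or the tolerance set for it. Scaling by TMM or by the size factors of DESeq2 left 13 members higher in replicate 1, and gave 8 and 9 higher in replicate 2. The minimum of 10 counts on average gave 40 expressed members in place of 38. The median level of the members, 4.11 RPKM over all 47, was 5.64 by the longest transcript, 6.76 by the canonical transcript, 17.1 by coding length, 5.63 over members with at least 10 counts, and 4.50 to 4.73 with either library left out. With a 2-fold difference also required, members higher in replicate 1 and in replicate 2 fell to 0 and 0, and partner genes to 0 and 1. The length correction gave 10 and 14 partner genes. The median length-adjusted log2 ratio of the members, near 0, changed sign to −0.035 without a filter and with a pseudocount of 0.5 counts, and to −0.0048 by canonical transcript length. SLC25A5 made up 98.4% of the ADP/ATP carriers by the longest and by the canonical transcript, and 95.7% by CPM and by coding length. Without SLC25A6 its share was 98.7%, a step that can only raise it. That step does not address reads that SLC25A6 may have lost. SLC25A13 made up 50.6% of its pair by the longest transcript, 51.0% by the canonical one, 45.4% by CPM and 45.5% by coding length. SLC25A24 made up 46.4%, 45.6%, 50.7% and 50.8% of its group in the same order. SLC25A37 made up 46.5%, 34.8%, 61.9% and 63.7% of its pair in that order. These shares move because the lengths differ, by construction.

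No paired analysis was possible because the 2 libraries form a single group. For the same reason neither library can be left out of the comparison between them. Depth limits the members under 20 counts: a count of 0 does not show absence.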
